A study of Mus musculus with 6 samples.

Results

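The early growth response genes Egr1, Egr2, Egr3 and Egr4 and the nuclear receptor genes Nr4a1, Nr4a2 and Nr4a3 were measured by RNA-seq in the arcuate nucleus (ARC) of male mice on a normal-chow diet (NCD) or a high-fat diet (HFD). These 7 genes were 7 of the 22322 genes in the deposited table, and all 7 passed the filter on low counts that left 14188 genes for testing. They are all members of both families, and they were taken up because earlier results of the same NCD against HFD comparison had shown most of them lower in HFD mice. Their levels and fold changes between the diets are therefore given as a description, and where a count of calls is given for them, nothing is read from it.

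Egr proteins are transcription factors with zinc fingers that bind GC-rich DNA. Nr4a proteins are nuclear receptors that act without a known hormone ligand and bind DNA alone or as pairs, and some but not all of them with retinoid X receptors. Both families are immediate early genes: their mRNA is made within minutes of synaptic activity or hormone signals, through factors such as SRF and CREB that are already in the cell, and is short-lived, so that Egr1 is widely used, like Fos, as a mark of recently active neurons. Nab1 and Nab2 are corepressors of Egr proteins.

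Each diet had 3 samples. The mice were 4 weeks old when the diets began and received either NCD with 16.5% fat or HFD with 60% fat for 16 weeks. The study's wild type mice were C57BL/6J, and a cross of Kiss1-Cre with a fluorescent reporter line was used to locate Kiss1 neurons. The sources used here do not say clearly which of these mice were sequenced. Frozen brains were cut into 20 µm sections, and the ARC, at the site where Kiss1 neurons lie, was collected by laser capture microdissection (LCM). Kiss1 neurons make kisspeptin and drive the pulses of luteinizing hormone (LH), and the comparison addressed which genes accompany disrupted LH release in diet-induced obese mice. The captured tissue holds all cells of the region, not Kiss1 neurons alone. The sources used here do not say whether a sample was 1 mouse or a pool, so the spread between samples may be partly technical. A lower level in such bulk tissue can come from fewer cells of a type or from less RNA per cell, and these cannot be told apart.

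The total count per sample was 15925648, 9937632 and 6882449 in NCD samples 1, 2 and 3, and 8024664, 10479778 and 5171381 in HFD samples 1, 2 and 3. Levels are given in CPM, the count scaled to a common library total. A floor of 3 counts was set for detection, which is 0.18 CPM in the deepest library and 0.564 CPM in the shallowest. The share of counts from mitochondrial genes was 3.20%, 4.24% and 6.57% in the NCD samples and 4.16%, 3.51% and 5.77% in the HFD samples. In each diet sample 3 was thus the shallowest library and the one with the highest mitochondrial share. CPM values below were scaled by the trimmed mean of M-values (TMM), with factors between 0.967 and 1.04. Below, NCD1 to NCD3 and HFD1 to HFD3 name the samples.

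The tissue expressed the markers of its label, and also markers of neurons outside the ARC. The 6 general neuronal markers summed to 2588, 2943 and 2746 CPM in the NCD samples and to 2575, 3058 and 2467 CPM in the HFD samples, and the diets overlapped. The 10 markers of arcuate neurons, among them Pomc, Npy and Cartpt, summed to 1304, 2289 and 1577 CPM on NCD and 1950, 1830 and 2215 CPM on HFD. Markers of magnocellular and paraventricular neurons, which lie outside the ARC, are given further below. They summed to more than the arcuate markers in each NCD sample and to less in each HFD sample. Kiss1 itself had 0, 27 and 32 counts in NCD1 to NCD3 and 0, 21 and 42 counts in HFD1 to HFD3. Reads of Kiss1 may be shared with Gm28040, a gene annotated across the same stretch of the genome, which had 70, 15 and 25 counts in NCD and 99, 39 and 37 counts in HFD. NCD1 and HFD1, with no Kiss1 count, were thus the ones with the most Gm28040 counts of their diet.

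All 7 genes had a lower mean level in HFD than in NCD samples. The fold decrease fitted by edgeR ran from 1.36 (Egr3) to 11.2 (Egr2). For 6 of the 7, every HFD sample was below every NCD sample, where 3.24% of all genes tested showed such a gap in that direction. Without TMM scaling, or in the deposited FPKM, this held for 5 of the 7, since Nr4a2 also overlapped. In edgeR's quasi-likelihood test with Benjamini-Hochberg adjustment over all genes, Egr1, Egr2, Egr4 and Nr4a1 were called lower at an adjusted p under 0.05, which 0.0493% of the genes tested were. The study's own rule was an unadjusted p under 0.05 with a change above 1.5-fold, which the study applied to DESeq2. Applied here to the edgeR test, it was met by 6 of the 7 and by 0.888% of the genes tested in that direction. Since the genes were chosen from this comparison, nothing is read from these counts. The calls depended on single libraries. Only Nr4a1 was called without NCD2, without HFD1 or without HFD2, Nr4a1 and Egr1 were called without HFD3, and 5 of the 7 were called without NCD1.

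**Figure D1:**
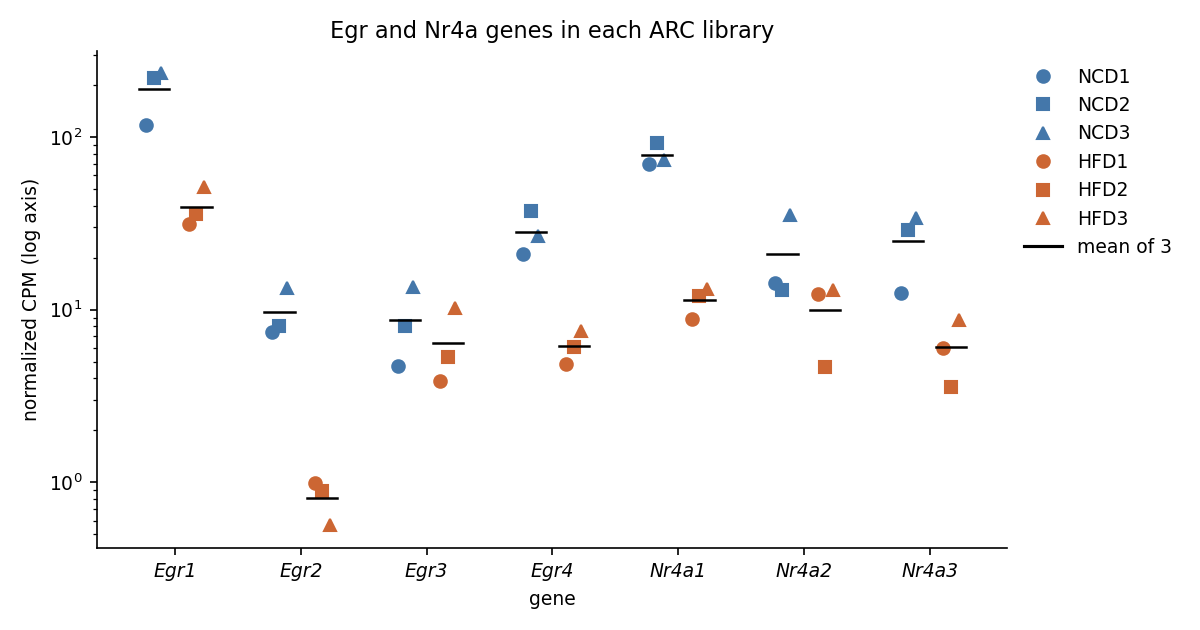
Level of each of the 7 genes in CPM (log axis) in the 3 NCD and the 3 HFD samples, 1 point per sample, with a line at the mean of each diet. The HFD points lie below all NCD points for 6 genes, for Nr4a2 by a ratio of only 1.004, and the diets overlap for Egr3.

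Egr1, the most studied gene of its family and a marker of neuronal activity, was at 118, 219 and 234 CPM in NCD1 to NCD3 and at 31.2, 35.9 and 51.2 CPM in HFD1 to HFD3. The diets did not overlap, and the lowest NCD sample was 2.30-fold above the highest HFD sample. Its mean was 190 ± 63.2 CPM (SD, n = 3) in NCD and 39.4 ± 10.4 CPM (SD, n = 3) in HFD, a log2 fold change of −2.27 with a standard error of 0.29, or 4.83-fold lower. The gene (ENSMUSG00000038418) lies on the plus strand of chromosome 18 at 34859823 to 34864984 (GRCm38).

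Egr2, known for its role in peripheral myelin and hindbrain patterning and also induced by activity, had 124, 79 and 89 counts in the NCD samples but 8, 9 and 3 counts in the HFD samples. In CPM these were 7.47, 8.04 and 13.4 in NCD and 0.994, 0.887 and 0.564 in HFD. In CPM the gap between the diets was the widest of the 7 genes, since the lowest NCD sample stood 7.51-fold above the highest HFD sample. The exact Poisson 95% intervals of the HFD counts were 3.45 to 15.8, 4.12 to 17.1 and 0.619 to 8.77, so that counting error alone is large there, and HFD3 with 3 counts sat at the detection floor. The mean was 9.63 ± 3.27 CPM (SD, n = 3) in NCD and 0.815 ± 0.224 CPM (SD, n = 3) in HFD, a log2 fold change of −3.49 with a standard error of 0.43. Egr2 (ENSMUSG00000037868) lies on the plus strand of chromosome 10 at 67535475 to 67542188 (GRCm38).

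The deposited FPKM of Egr2 departed from the counts in HFD1. FPKM, which also takes the length of the transcript into account, was 2.93, 3.31 and 4.70 in NCD and 1.54, 0.36 and 0.22 in HFD. In 5 samples 1 CPM of Egr2 corresponded to 0.351 to 0.412 FPKM, but in HFD1 to 1.55 FPKM. On the authors' FPKM scale the log2 ratio of the group means was −2.37 in place of −3.49. On that scale Nr4a1, at −2.79, lay farther from 0 than Egr2. Egr2 thus remained lower in every HFD sample on both scales, and its fold change depended on that value.

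Egr3, which is induced together with Egr1 in neurons and is needed for muscle spindles, was the exception in its family. It was at 4.70, 8.04 and 13.5 CPM on NCD and at 3.85, 5.32 and 10.2 CPM on HFD. The diets overlapped, with HFD3 above both NCD1 and NCD2. The mean was 8.76 ± 4.47 CPM (SD, n = 3) in NCD and 6.45 ± 3.30 CPM (SD, n = 3) in HFD, a log2 fold change of −0.44 with a standard error of 0.45, and the difference was within the spread of the samples. The log2 fold change was 0.00 without NCD3, −0.78 without NCD1 and −0.90 without HFD3. Egr3 (ENSMUSG00000033730) lies on the plus strand of chromosome 14 at 70077203 to 70082614 (GRCm38).

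Egr4, expressed mainly in the nervous system and in male germ cells, was at 21.0, 37.3 and 26.8 CPM on NCD and at 4.85, 6.11 and 7.53 CPM on HFD. The diets did not overlap, and the gap between the lowest NCD and the highest HFD sample was 2.78-fold. The mean was 28.3 ± 8.26 CPM (SD, n = 3) in NCD and 6.16 ± 1.34 CPM (SD, n = 3) in HFD, a log2 fold change of −2.21 with a standard error of 0.29, or 4.62-fold lower. Egr4 (ENSMUSG00000071341) lies on the minus strand of chromosome 6 at 85511121 to 85513589 (GRCm38).

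Nr4a1, also called Nur77, a regulator of Pomc transcription and of metabolism, was the gene with the steadiest levels within each diet. It was at 70.1, 92.0 and 73.3 CPM on NCD and at 8.82, 11.9 and 13.2 CPM on HFD, with the lowest NCD sample 5.32-fold above the highest HFD sample. The highest sample was 1.31-fold above the lowest within NCD and 1.49-fold within HFD. The mean was 78.5 ± 11.9 CPM (SD, n = 3) in NCD and 11.3 ± 2.24 CPM (SD, n = 3) in HFD, a log2 fold change of −2.80 with a standard error of 0.24, or 6.96-fold lower. Nr4a1 (ENSMUSG00000023034) lies on the plus strand of chromosome 15 at 101254269 to 101274795 (GRCm38).

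Nr4a2, also called Nurr1, is best known for the making of midbrain dopamine neurons. It was at 14.3, 13.0 and 35.5 CPM on NCD and at 12.3, 4.63 and 13.0 CPM on HFD. The diets met at a ratio of 1.004 between the lowest NCD and the highest HFD sample, which overlapped in FPKM with 3.79 in NCD2 and 3.91 in HFD3, and NCD3 was the highest of all samples. The mean was 21.0 ± 12.6 CPM (SD, n = 3) in NCD and 9.97 ± 4.64 CPM (SD, n = 3) in HFD, a log2 fold change of −1.08 with a standard error of 0.44, which became −0.47 without NCD3 and −0.71 without HFD2. Nr4a2 (ENSMUSG00000026826) lies on the minus strand of chromosome 2 at 57106830 to 57124003 (GRCm38).

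Nr4a3, also called Nor1, was at 12.5, 28.9 and 33.9 CPM on NCD and at 5.97, 3.55 and 8.65 CPM on HFD. The diets did not overlap, with NCD1 1.45-fold above HFD3 as the nearest pair. The mean was 25.1 ± 11.2 CPM (SD, n = 3) in NCD and 6.06 ± 2.55 CPM (SD, n = 3) in HFD, a log2 fold change of −2.07 with a standard error of 0.41, or 4.21-fold lower. Nr4a3 (ENSMUSG00000028341) lies on the plus strand of chromosome 4 at 48045153 to 48086447 (GRCm38).

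**Figure D2:**
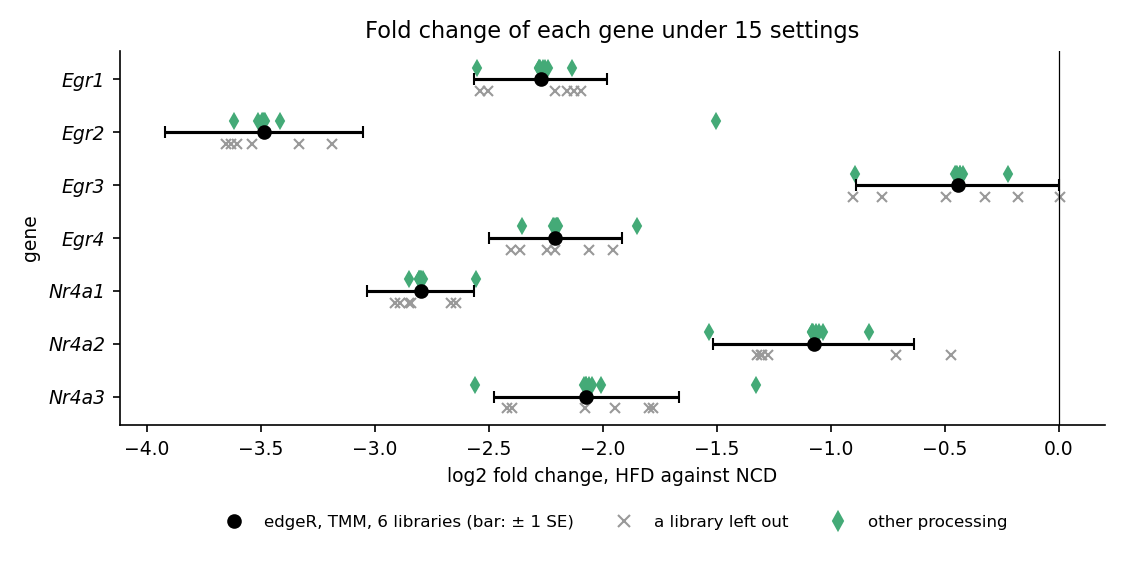
Log2 fold change (HFD against NCD) of each of the 7 genes with a bar of 1 standard error (black), the values with 1 sample left out (crosses) and those under other processing (diamonds). Nr4a1 at −2.80 and Egr2 at −3.49 lie farthest below 0, whereas the range of Egr3 reaches 0.00 and that of Nr4a2 −0.47.

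The families differed in gene structure. The 4 Egr genes have 2 exons each and span 2469 to 6714 bases, whereas the 3 Nr4a genes have 8 exons each and span 17174 to 41295 bases. The 14121 tested genes with a gene model had a median of 9 exons and a median span of 25447 bases. All 4 Egr genes were thus shorter than the lower quartile of 10655 bases, and Nr4a1 and Nr4a2 lay between that quartile and the median. The mRNA of Egr4 was the shortest with 2148 bases, that of Nr4a3 the longest with 5720 bases, so that the order of levels among the 7 genes is given in FPKM, which accounts for length.

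In the NCD samples Egr1 had the highest level with 56.8 ± 17.7 FPKM (SD, n = 3), followed by Nr4a1 with 31.6 ± 4.48 and Egr4 with 13.1 ± 3.61 FPKM. Nr4a1 was above Egr4 without overlap, whereas Egr1 and Nr4a1 overlapped in their ranges but kept the same order within each of the 3 samples. Nr4a2 at 6.12 ± 3.67, Nr4a3 at 4.36 ± 1.84, Egr2 at 3.65 ± 0.932 and Egr3 at 2.19 ± 1.05 FPKM followed, and from Egr4 downwards no neighbours were separated beyond their spread. In the HFD samples Egr1 was again first with 11.97 ± 3.46 FPKM and was separated from Nr4a1 with 4.56 ± 0.949 FPKM. Below it Nr4a2 at 2.90 ± 1.43, Egr4 at 2.87 ± 0.678, Egr3 at 1.71 ± 0.814, Nr4a3 at 1.07 ± 0.480 and Egr2 at 0.707 ± 0.725 FPKM had overlapping neighbours throughout. The overlap of Egr2 with Nr4a3 rests on the Egr2 value of 1.54 FPKM in HFD1, which departed from the counts. In HFD2 and HFD3 Egr2 was at 0.36 and 0.22 FPKM, below the lowest Nr4a3 value of 0.60 FPKM. Egr3, last of the 7 genes in NCD, was thus the fifth in HFD.

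The make-up of the families also shifted in FPKM. Egr1 made up 71.8%, 74.3% and 77.5% of the Egr signal in NCD and 65.6%, 70.4% and 71.1% in HFD, with no overlap between the diets. The share of Egr1 in HFD1 includes the FPKM of Egr2 that departed from the counts. The share of Egr3 was 2.44%, 2.31% and 3.73% in NCD and 8.16%, 8.77% and 11.8% in HFD, also without overlap. Within each sample Egr1 stood 29.4-, 32.2- and 20.8-fold above Egr3 in NCD and 8.03-, 8.03- and 6.01-fold in HFD. Nr4a1 held 81.9%, 80.7% and 63.9% of the Nr4a signal in NCD and 43.8%, 71.5% and 49.95% in HFD, where NCD3 and HFD2 overlapped. The shares rest on the same values as the fold changes and are given without a test.

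**Figure D3:**
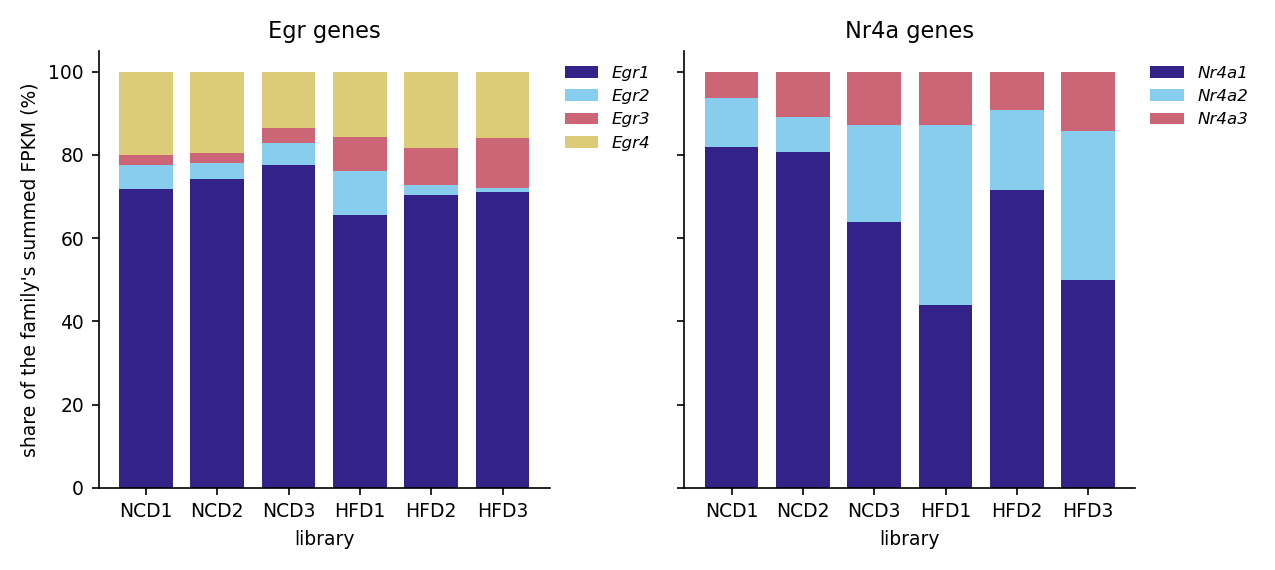
Stacked bars of the FPKM share (percent) of each gene within the Egr family and within the Nr4a family, 1 bar per sample. Egr3 takes 2.31% to 3.73% of the Egr signal in the NCD bars and 8.16% to 11.8% in the HFD bars, and Nr4a2 reaches 43.3% of the Nr4a signal in HFD1.

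Summed over the 7 genes, the level was 248, 406 and 430 CPM in NCD1 to NCD3 and 68.0, 68.3 and 104 CPM in HFD1 to HFD3. Within each diet the genes varied partly together. NCD1 was the lowest NCD sample for 6 of the 7 genes and NCD3 the highest for 5, and HFD3 was the highest HFD sample for 6 of the 7. NCD1 was also the deepest library with the lowest mitochondrial share, and NCD3 and HFD3 were the shallowest of their diets with the highest mitochondrial share, and the part of RNA quality in the levels was not tested. When the log2 of the library total entered the fit as a covariate, the log2 fold changes were −2.55 for Egr1, −3.62 for Egr2, −0.90 for Egr3, −2.35 for Egr4, −2.85 for Nr4a1, −1.54 for Nr4a2 and −2.56 for Nr4a3, each at least as far from 0 as without it.

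Centred on each gene's mean over the 6 samples, the mean log2 profile of the 7 genes was 0.49, 1.06 and 1.41 in NCD1 to NCD3 and −1.10, −1.22 and −0.64 in HFD1 to HFD3. The root mean square difference over the 6 samples between a gene and the mean of the other 6 was smallest for Egr1 (0.220), Nr4a3 (0.331) and Egr4 (0.334). It was larger for Nr4a1 (0.592) and Nr4a2 (0.791) and largest for Egr2 (0.865) and Egr3 (0.978). In CPM these last were the genes with the widest and the narrowest gap between the diets.

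**Figure D4:**
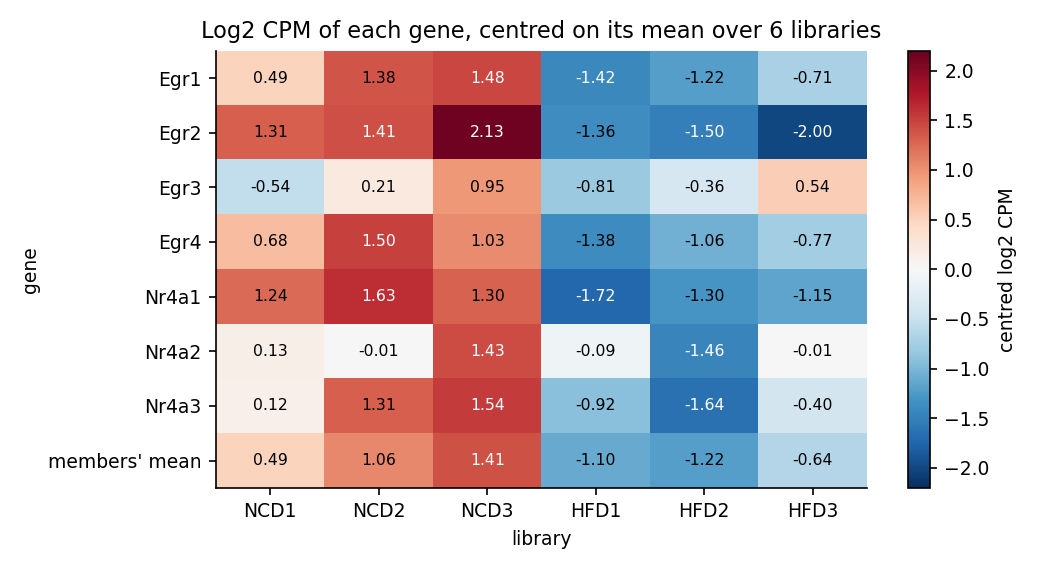
Heat map of the log2 CPM of the 7 genes, centred on each gene's mean over the 6 samples, with their mean profile in the lowest row (red above the mean, blue below it, value in each cell). The mean profile runs from 0.49 to 1.41 in the NCD samples and from −1.22 to −0.64 in the HFD samples.

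Among 11891 other genes that averaged 50 counts or more, whose median root mean square difference from the mean profile was 1.08, the 10 most similar over the 6 samples were Junb (0.290), Fos (0.313), Sik1 (0.352), Apold1 (0.389), Btg2 (0.405), Arc (0.449), Gem (0.519), Adamts1 (0.532), Fosl2 (0.589) and Avp (0.590). Fos, Junb and Fosl2 encode parts of the AP-1 transcription factor, Arc a synaptic protein whose mRNA is carried to active dendrites, Sik1 a kinase that restrains CREB coactivators, and Avp the hormone vasopressin. Junb, the closest, was at 73.7, 127 and 94.8 CPM on NCD and at 30.9, 25.3 and 32.0 CPM on HFD. Fos was at 80.2, 149 and 121 CPM on NCD and at 16.9, 17.7 and 32.7 CPM on HFD. In both, as in Egr1, NCD1 was the lowest NCD sample and no HFD sample reached it. Of the 10 genes, 9 had no overlap between the diets, and Fosl2 overlapped. These genes were picked for a profile that itself separates the diets.

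Of 16 other immediate early genes, 15 were lower in HFD and 1 was higher, with a median log2 fold change of −1.08 (−0.67 with limma on log2(FPKM + 1)). Over all genes tested, 49.5% were lower and the median was 0.00. Of the 14188 genes in the edgeR test, 155 were lower at an unadjusted p under 0.05, and 2.3% passed it in either direction. Of the 16, 10 were lower at an unadjusted p under 0.05, and 3 at an adjusted p under 0.05. These 3 were Fos (log2 fold change −2.39 with a standard error of 0.30, adjusted p = 0.0108), Junb (−1.74 with 0.24, adjusted p = 0.0136) and Arc (−1.61 with 0.25, adjusted p = 0.0459). None of the 16 was called without NCD2, HFD1 or HFD2, 1 without HFD3 and 5 without NCD3, and DESeq2 called 6. The dual specificity phosphatase genes Dusp1 (−1.16) and Dusp6 (−0.90), which switch off MAP kinases, were among the 10 with Btg2 (−1.45), Sik1 (−1.36), Fosl2 (−0.96), Fosb (−1.52) and the clock gene Per1 (−0.57). Jund, which is less inducible than the other Jun genes, was at 95.3, 94.5 and 93.9 CPM on NCD and at 196, 62.5 and 214 CPM on HFD, where HFD2 went the other way from HFD1 and HFD3. The list is known to be induced by the same signals and was drawn up with earlier results of these samples in view, so its count is not independent evidence.

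The factors that induce these genes were measured at the mRNA level only, which does not show their activity. Of 9 SRF, TCF and MEF2 factors, 5 were lower and 4 higher, none at an unadjusted p under 0.05 in edgeR or at an adjusted p under 0.05 in edgeR or DESeq2, and the median log2 fold change was −0.05. Mrtfb, a coactivator of SRF, was at 173 ± 18.5 CPM on NCD and 178 ± 19.1 CPM on HFD (SD, n = 3), and Mef2a at 90.0 ± 6.63 and 86.9 ± 8.496 CPM. Of 8 CREB factors and coactivators, 1 was lower and 7 were higher, again none at an unadjusted p under 0.05, with a median of 0.01 that was −0.15 without HFD3. Crebbp, a histone acetyltransferase recruited by CREB, was at 117 ± 15.9 CPM on NCD and 118 ± 19.1 CPM on HFD, and Crtc1, a CREB coactivator of neurons, at 122 ± 13.1 and 107 ± 9.94 CPM.

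Of 17 kinases upstream of SRF and CREB, 16 were lower and 1 higher with a median log2 fold change of −0.24, and none passed an unadjusted p under 0.05 in edgeR or an adjusted p under 0.05 in edgeR or DESeq2. Prkacb, the kinase gene with the highest mean CPM and a catalytic subunit of protein kinase A, was at 794 ± 190 CPM on NCD and 653 ± 67.9 CPM on HFD (SD, n = 3), and Camk2a was at 409 ± 90.6 and 407 ± 31.7 CPM. The summed level of these kinases was 3679, 3127 and 2530 CPM on NCD and 2700, 3064 and 2394 CPM on HFD, the order of library depth within each diet. Their median log2 fold change was −0.09 without NCD1, −0.13 without HFD3, and 0.00 with the library total in the fit as a covariate. The kinase gene Rps6ka4 was not analysed here.

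Of 5 partners of the Egr and Nr4a proteins, 2 were lower and 3 higher in HFD, with a median log2 fold change of 0.16. Rxra, which encodes a retinoid X receptor, was at 19.6, 17.8 and 17.9 CPM on NCD and at 30.1, 25.04 and 28.8 CPM on HFD. Every HFD sample was above every NCD sample, at a log2 fold change of 0.60 with a standard error of 0.21, but the adjusted p in edgeR was 0.999. The corepressor genes Nab1, at 14.5 ± 3.70 CPM on NCD and 16.2 ± 4.10 CPM on HFD, and Nab2, at 13.6 ± 1.44 and 12.5 ± 1.91 CPM (SD, n = 3), overlapped between the diets. The median of this short list was −0.00 without NCD1, 0.38 without NCD3 and 0.01 without HFD3.

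The known Egr targets were mixed in direction. Of 11 listed, 10 were tested, of which 6 were lower and 4 higher with a median log2 fold change of −0.06. Arc alone was called, from 30.7 ± 7.81 CPM on NCD to 10.1 ± 0.775 CPM on HFD (SD, n = 3), and Arc is itself an immediate early gene. It was not called without NCD1, NCD2, HFD1, HFD2 or HFD3. Its call was also lost with library totals alone, with the filter of a mean of at least 50 counts, and with limma on log2(FPKM + 1). The synapsin gene Syn2 was at 481 ± 33.0 CPM on NCD and 476 ± 45.9 CPM on HFD. Of 8 known Nr4a targets 7 were tested, of which 5 were lower and 2 higher with a median of −0.26. That median was −0.07 without NCD3, −0.13 without NCD2 and −0.12 with limma on log2(FPKM + 1). None of these targets passed an unadjusted p under 0.05 in edgeR or an adjusted p under 0.05 in edgeR or DESeq2. Pomc, the precursor of melanocortins and a target of Nr4a1 in pituitary cells, was at 560, 1209 and 500.0 CPM on NCD and at 556, 651 and 559 CPM on HFD. NCD2 alone stood above the rest. Th, the rate-limiting enzyme of dopamine synthesis and a target of both families, was at 76.7 ± 16.7 CPM on NCD and 88.8 ± 32.4 CPM on HFD (SD, n = 3).

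The relatives of both families showed no common direction. Of 34 other nuclear receptors tested of 45, 18 were lower and 16 higher with a median log2 fold change of −0.02 (0.13 without NCD2). None had an adjusted p under 0.05 in edgeR or DESeq2, and at an unadjusted p under 0.05 Rarb (−1.25), Nr3c2 (−0.70) and Esrrg (−0.84) were lower and Rxra (0.60) higher. Rarb, a retinoic acid receptor, was at 6.68, 4.28 and 4.36 CPM on NCD and at 1.99, 2.07 and 2.45 CPM on HFD, without overlap. Of the 5 zinc finger genes Sp1 to Sp4 and Wt1, whose proteins bind similar GC-rich DNA, 4 were tested and 3 were lower and 1 higher, none at an unadjusted p under 0.05 in edgeR or an adjusted p under 0.05 in edgeR or DESeq2, with a median of −0.04. Sp3, with the highest mean CPM of them, was at 48.5 ± 7.15 CPM on NCD and 47.4 ± 6.89 CPM on HFD (SD, n = 3).

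**Figure D5:**
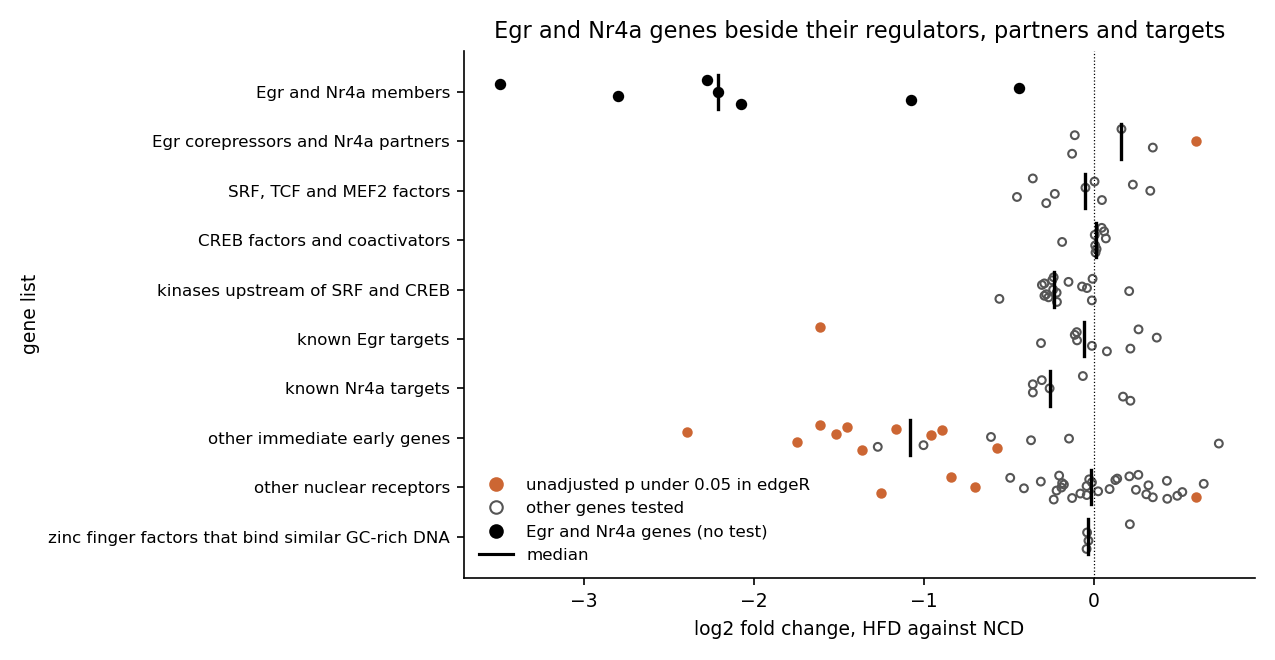
Log2 fold change (HFD against NCD) of every gene tested in the 7 Egr and Nr4a genes and in the lists of partners, upstream factors, targets, other immediate early genes and relatives, with a bar at each list's median and orange points for list genes at an unadjusted p under 0.05. The medians are −2.21 for the 7 genes, −1.08 for the other immediate early genes and between −0.26 and 0.16 for the other lists.

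Markers of other cells were measured beside these genes. The 6 markers of magnocellular and paraventricular neurons, which lie outside the ARC, summed to 2960, 5907 and 2641 CPM on NCD and to 1431, 1497 and 1350 CPM on HFD, with no overlap. Most of these counts came from Avp, at 2382, 4888 and 1961 CPM on NCD and at 1048, 944 and 830.3 CPM on HFD. Oxt, which encodes oxytocin, was at 668 ± 216 CPM on NCD and 366 ± 94.96 CPM on HFD (SD, n = 3). Of the 6 markers 4 were lower and 2 higher. The transcription factor genes of the list differed in direction, with Sim1 at 8.54 ± 0.673 and Otp at 17.1 ± 9.93 CPM on NCD against 5.65 ± 0.404 and 21.8 ± 11.7 CPM on HFD (SD, n = 3), and neither passed an unadjusted p under 0.05. Whether the counts of a listed gene came from these neurons or from cells of the ARC cannot be told apart in bulk tissue. At an unadjusted p under 0.05, Avp and Oxt were lower and Trh (0.51) was higher, and none had an adjusted p under 0.05 (0.194 for Avp in edgeR). The part of these neurons in the levels of the Egr and Nr4a genes was not tested.

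Among the arcuate markers, Cartpt (log2 fold change 0.75) and Tac2 (0.60), which encodes neurokinin B in Kiss1 neurons, were higher in HFD at an unadjusted p under 0.05, and of the 10 markers 8 were higher and 2 lower. Of the glial and vascular lists, single genes passed that threshold, namely the tanycyte marker Crym (0.89), the astrocyte marker Gfap (0.88) and the microglial marker C1qa (0.46), which were higher, and the endothelial marker Cldn5 (−0.48) and the smooth muscle marker Acta2 (−0.83), which were lower. Their lists as a whole had 4 of 6 astrocyte markers lower, 3 of 6 microglial markers lower, 2 of 4 endothelial markers lower, all 6 tanycyte markers higher and all 4 markers of pericytes and smooth muscle lower. No marker of ventromedial neurons, ependymal cells, oligodendrocytes or their precursors passed it, and no marker gene of any of these lists had an adjusted p under 0.05 in edgeR. The 5 hemoglobin and other red blood cell genes summed to 782, 2488 and 1966 CPM on NCD and to 1687, 1156 and 824 CPM on HFD and overlapped. The pituitary hormone genes Gh and Prl had no counts in any sample, and Cga, the shared subunit of pituitary glycoprotein hormones, was at 9.39, 4.17 and 14.9 CPM on NCD and at 14.7, 10.6 and 48.0 CPM on HFD. The diets overlapped and HFD3 was far above the rest, and Cga (log2 fold change 1.36) also passed an unadjusted p under 0.05. The part of these cells in the levels of the 7 genes was not tested.

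The DNA just before the start of these genes was read from RefSeq (GRCm38.p6), whose table held a window from 250 bases before to 50 bases after the start for 5 of the 7 genes. It is shown because 4 of these windows hold a sequence that the choice of genes did not use. The letters CGTCA, the core of the cAMP response element (CRE) that CREB binds, occurred on either strand in 4 of the 5 windows (Egr4, Nr4a1, Nr4a2 and Nr4a3) and in 20.8% of all 32851 windows. Nr4a1, Nr4a2 and Nr4a3 each held 4 copies, as did or exceeded 0.231% of all windows, and Egr4 held 2 copies. The windows of the 5 genes were GC-rich, at 64.7% to 81.7% against a median of 52.7% over all windows. Among the 6218 windows with a GC content of at least 64.7%, 32.4% held at least 1 copy and 0.563% at least 4. In the sequences below, 5′ to 3′ on the strand of the gene and ending before any annotated exon, capitals mark this core, written TGACG where it lies on the other strand. In Nr4a1 capitals also mark CGCCCCCGC, the other strand of the Egr binding site GCGGGGGCG. In Nr4a2 they also mark TTTATA, the other strand of the letters TATAAA of a TATA box. They are Egr4 at chr6:85513590-85513839 (minus strand), Nr4a1 at chr15:101266596-101266845 (plus strand, before a start inside the annotated gene), Nr4a2 at chr2:57124004-57124253 (minus strand) and Nr4a3 at chr4:48045055-48045152 (plus strand, cut to 98 bases, with 3 of its 4 copies).
Egr4: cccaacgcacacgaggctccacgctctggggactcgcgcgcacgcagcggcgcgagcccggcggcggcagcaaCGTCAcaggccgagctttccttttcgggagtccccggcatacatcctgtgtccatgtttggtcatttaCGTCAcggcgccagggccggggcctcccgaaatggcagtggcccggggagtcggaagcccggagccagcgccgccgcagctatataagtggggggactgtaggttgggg
Nr4a1: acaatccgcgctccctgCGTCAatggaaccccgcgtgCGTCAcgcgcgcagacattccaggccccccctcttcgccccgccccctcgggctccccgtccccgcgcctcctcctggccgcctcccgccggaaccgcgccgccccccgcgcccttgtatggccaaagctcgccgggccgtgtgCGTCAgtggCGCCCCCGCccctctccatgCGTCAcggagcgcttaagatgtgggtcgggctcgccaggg
Nr4a2: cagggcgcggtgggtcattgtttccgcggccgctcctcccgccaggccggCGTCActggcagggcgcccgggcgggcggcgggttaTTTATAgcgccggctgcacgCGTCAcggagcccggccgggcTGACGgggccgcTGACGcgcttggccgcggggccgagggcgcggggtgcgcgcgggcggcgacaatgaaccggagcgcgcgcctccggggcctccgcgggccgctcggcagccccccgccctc
Nr4a3: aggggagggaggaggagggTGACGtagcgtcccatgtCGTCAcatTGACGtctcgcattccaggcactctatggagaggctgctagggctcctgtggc

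In the Nr4a1 window the 4 cores lie on 1 strand, whereas Nr4a2 and Nr4a3 carry them on both strands. The window of Egr2, at 72.0% GC, had no core. It is the most 5′ of the 5 windows listed for Egr2, and the others are not described here. The full element TGACGTCA was in none of the 5 windows and in 1.79% of all windows. The CArG box bound by SRF, searched in its strict form without near matches, was in none of them and in 1.63% of all windows. Egr1 and Egr3 had no window and were not searched. The Egr site GCGGGGGCG was in Nr4a1 alone and in 2.91% of all windows, the Egr site GCGTGGGCG in none and in 0.612%, and the Nr4a site AAAGGTCA in none and in 1.51%. TATAAA was in Nr4a2 alone, on the other strand at −164 to −159 from the start, and in 13.6% of all windows. Only these exact letters were searched, so near forms such as the TATATAAG in the Egr4 sequence were not counted. All letters were searched on both strands, a full element also holds the core, and a match is a description of these letters in this window and not of binding.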

How the data were processed

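The 6 ARC samples were 3 NCD and 3 HFD samples, grouped by their titles. According to the study's methods, the authors compared cleaned NovaSeq reads with ribosomal sequences (bowtie2), aligned them with HISAT2, and computed gene values with StringTie and RSEM. The submitters' processing notes name mm10, and versions and strand setting are not given in the sources used here. The deposited read counts per gene are not normalized and were the input of the main test. The deposited FPKM values were computed by the authors from the counts, the transcript length and the number of mapped fragments. The deposited group means, log2 fold changes, p-values and FDR are the authors' own comparison and were not used.

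Identifiers were matched to GENCODE M21 (22267 of 22322 had a symbol). Genes were filtered with edgeR's filterByExpr, normalized with TMM and compared by diet alone in the quasi-likelihood test. Alternatives were size factors, library totals, DESeq2, other filters, limma on log2(FPKM + 1), a replicate block, total count as a covariate, and leaving out each sample. CPM are counts scaled by the TMM-adjusted library total, and centred log2 CPM used a prior count of 2. Poisson intervals (95%) and floors of 3 counts cover counting error only. Of these steps only the edgeR fit with TMM was tested on simulated counts.

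The 7 genes and all lists were chosen with earlier results of these data known. The text names the 7 genes, list genes at an unadjusted p under 0.05 or, if none, the 2 with the highest mean CPM, and the 10 most similar genes; other list and marker genes named were chosen after their values were seen. Where RefSeq (GRCm38.p6) gave several promoter windows for a gene, the most 5′ was used (Egr2 had 5). Versions were edgeR 4.0.16, DESeq2 1.42.0 and limma 3.58.1 under R 4.3.3, and Python 3.11.15.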

Additional observations from a re-analysis of the deposited data

How the results depend on the processing

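Over all genes, 8 were called at an adjusted p under 0.05. The count was 19 with DESeq2, 15 when every gene with at least 1 count was tested, 15 with the log2 library total as a covariate, and 5 with limma on log2(FPKM + 1). It was 270 when the study's rule of an unadjusted p under 0.05 with a change above 1.5-fold was applied to the edgeR test. Other size factors gave 8, library totals alone 7, and a mean of at least 50 counts 7. Leaving out 1 sample gave between 1 gene (without NCD2, HFD1 or HFD2) and 16 genes (without NCD3), and 4 without HFD3. Of the 7 Egr and Nr4a genes, 4 were called, between 1 and 5 when 1 sample was left out. With limma on log2(FPKM + 1) 3 were called, and Egr2 was not among them. With DESeq2, with the filter of at least 1 count, and with the library total as a covariate, 5 were called, Nr4a3 being the gene gained. Taking each of the 7 genes under each alternative, 96 of 98 log2 fold changes moved by no more than the replicate spread. The exceptions, from a single alternative, were Egr2 (−1.51) and Nr4a3 (−1.33) with limma on log2(FPKM + 1). That scale understates the change of low genes, and for Egr2 it also uses the deposited FPKM that departed from the count in HFD1. Same-numbered samples of the diets did not all deviate together, with correlations of −0.01, 0.11 and 0.37, and not every sample correlated best with its own number. With 3 samples per diet these correlations cannot show whether the numbers pair the samples. A fit with the replicate number as a block called 17 genes, the 8 among them, and 5 of the 7. The cause of the shifts in calls was not tested. Depth limits Egr2 in HFD most, with 3 counts in HFD3.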
